A study of Mus musculus with 18 samples.

Results

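The genes described here are 10 markers of Cajal-Retzius cells other than Reln: Trp73, Lhx1, Lhx5, Barhl2, Nhlh2, Ebf2, Ebf3, Ndnf, Calb2 and Car10. They make up 10 of the 24015 genes in the count table, and all 10 passed the filter on low counts in both comparisons below. Ebf2 passed it only through wild-type layer 6 libraries, where it is high, and so did Barhl2 in the comparison of layers. They were selected on what they mark and with their counts in these groups already known, so their values are given as a description and no p is printed for them. The series holds 18 samples of mouse cortex, of which 12 are RNA libraries, 4 in each of 3 groups. Each came from about 25000 cortical cells positive for tdTomato, sorted at postnatal day 5. The groups are layer 6 neurons with the genotype Tbr1 Layer 6 Null, wild-type (WT) layer 5 neurons and WT layer 6 neurons. The design text calls the null constitutive instead, so the mutants are called null here. The sources used here do not give what drives tdTomato, whether it marks Cajal-Retzius cells, the strain of these mice or whether animals were pooled.

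Cajal-Retzius cells are among the earliest neurons of the cortex and lie at its surface, in layer 1, where they secrete reelin, a glycoprotein that guides the layering of later-born neurons. They arise at the edges of the cortical sheet, such as the cortical hem, the septum and the border between pallium and subpallium, and most of those in the mouse neocortex disappear soon after birth. TBR1 is a T-box transcription factor of layer 6 neurons that Cajal-Retzius cells also make. Several of the markers are shared with other cells: calretinin, the product of Calb2, and NDNF also mark cortical interneurons.

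Null layer 6 libraries held 41091165 to 47540669 counts, WT layer 5 libraries 27465597 to 39703820 and WT layer 6 libraries 32982957 to 54899002. Levels are given in CPM, the counts scaled by the library total. Tbr1 had 94.5 ± 2.46 CPM (mean ± SD, n = 4) in null layer 6 libraries, 42.1 ± 2.33 CPM in those of WT layer 5 and 178 ± 5.67 CPM in those of WT layer 6. The sources used here do not say which part of the gene is missing. Xist stood at 260 to 300.1 CPM in null layer 6 libraries and 39.1 to 40.6 CPM in WT layer 5 libraries. Among WT layer 6 libraries, replicates 1 and 2 had 0.469 and 0.455 CPM of Xist, and replicates 3 and 4 had 291 and 289 CPM. Label codes have a digit in common within these same pairs, in both layer 6 genotypes. Nothing in the labels says that the 4 libraries of a group came from separate animals, so the errors given measure the spread between libraries, which may be technical. All layer 6 libraries are sequencing batch A, and layer 5 replicates 1 and 2 are batch B and 3 and 4 batch C, so layer and batch cannot be told apart.

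RefSeq promoters (GRCm38.p6, 250 bases before to 50 after the transcription start) were at hand for 6 members, in 8 promoters: Trp73 and Car10 with 2 each, and Nhlh2, Lhx1, Ebf3 and Barhl2. Those of Trp73 are shown because its starts give different proteins, and those of Nhlh2 and Ebf3 because these genes code for factors whose own binding motifs can be looked for there. Trp73 starts at 2 places 42.7 kb apart on the minus strand, at chr4:154139826-154140125 and chr4:154097124-154097423. The internal start is the one known to give the ΔN form of p73, which lacks the transactivation domain, and counts per gene do not separate the forms. Nhlh2 lies at chr3:102009895-102010194 on the plus strand, and Ebf3 at chr7:137314396-137314695 on the minus strand. Sequences run 5′ to 3′ on the gene's strand. Capitals mark CANNTG, the E-box that basic helix-loop-helix factors such as NHLH2 bind, in the first 3, and CCCNNGGG, the palindrome bound by early B-cell factors, in Ebf3.
Trp73 upstream start: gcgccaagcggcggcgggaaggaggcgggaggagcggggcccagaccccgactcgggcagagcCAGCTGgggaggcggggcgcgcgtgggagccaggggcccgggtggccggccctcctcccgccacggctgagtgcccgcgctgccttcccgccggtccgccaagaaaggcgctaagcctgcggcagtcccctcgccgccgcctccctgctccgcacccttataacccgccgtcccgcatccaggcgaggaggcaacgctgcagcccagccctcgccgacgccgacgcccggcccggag
Trp73 internal start: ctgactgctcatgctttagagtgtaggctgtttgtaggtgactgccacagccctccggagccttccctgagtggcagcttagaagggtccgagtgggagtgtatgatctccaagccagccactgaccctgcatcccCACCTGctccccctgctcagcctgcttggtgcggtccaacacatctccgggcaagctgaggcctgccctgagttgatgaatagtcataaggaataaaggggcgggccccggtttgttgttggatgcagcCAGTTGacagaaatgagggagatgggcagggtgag
Nhlh2: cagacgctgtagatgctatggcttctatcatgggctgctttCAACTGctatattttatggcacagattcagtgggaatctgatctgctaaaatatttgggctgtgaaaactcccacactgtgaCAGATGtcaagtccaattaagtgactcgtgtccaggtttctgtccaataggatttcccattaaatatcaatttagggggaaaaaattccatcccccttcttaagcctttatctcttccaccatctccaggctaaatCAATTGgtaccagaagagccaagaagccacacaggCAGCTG
Ebf3: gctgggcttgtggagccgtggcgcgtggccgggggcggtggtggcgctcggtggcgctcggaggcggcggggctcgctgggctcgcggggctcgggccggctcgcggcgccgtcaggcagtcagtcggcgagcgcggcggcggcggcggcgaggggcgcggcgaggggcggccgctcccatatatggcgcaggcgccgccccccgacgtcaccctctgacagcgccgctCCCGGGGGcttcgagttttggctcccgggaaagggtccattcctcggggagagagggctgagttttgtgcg

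Both strands were searched for each motif. CANNTG was in 5 of the 8 member promoters, against 72.3% of all 32851 promoters in the table. The Nhlh2 promoter and the downstream promoter of Car10 held 4 copies each, and that of Barhl2 held 3. CCCNNGGG was in 3 of the 8, that of Ebf3 and those of Car10, against 13.7% of all. The T-box core AGGTGTGA was in 0 of the 8, against 1.28% of all, its shorter form GTGTGA in 0, against 14.5%, and the homeobox core TAATTA in 0, against 5.29%. A match is a run of letters in a short window and not a binding site. G and C made up 77.7% of the upstream and 57.7% of the internal Trp73 promoter, 43.3% of that of Nhlh2 and 77% of that of Ebf3. Those of Car10 had 66.3% and 67.7%, beside a median of 52.7% over all promoters. The motif shares were not adjusted for G and C content.

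Most of the Cajal-Retzius markers were lower in null than in WT layer 6 libraries. Of the 10, 8 were called lower (Trp73, Lhx5, Barhl2, Nhlh2, Ebf2, Ndnf, Calb2 and Car10), 1 was called higher (Ebf3) and 1 was not called (Lhx1). A gene was called at a Benjamini-Hochberg adjusted p under 0.05 in edgeR's quasi-likelihood test, which called 6.86% of the 14588 genes tested lower and 7.31% higher. For those 8 markers every null library lay below every WT library, a pattern found for 12.1% of all genes, with 8.01% of all genes showing the opposite. With the libraries of each layer 6 pair summed, 2 against 2, 6 markers were called lower (Trp73, Lhx5, Nhlh2, Ebf2, Ndnf and Calb2), beside 1.51% of 15230 genes called lower and 1.63% higher, and Barhl2, Car10 and Ebf3 lost their calls. The median log2 fold change was -1.15 over the 10 members, with a range of -2.74 to 0.42, and 0.00034 over all genes tested. Summed over the 10, the level was 56.6 to 62.9 CPM in null layer 6 libraries, 62.2 to 64.7 CPM in WT layer 5 libraries and 116 to 139 CPM in WT layer 6 libraries. In WT layer 6 this sum rests most on Ndnf, Calb2 and Nhlh2, which averaged 46.2, 25.5 and 21.9 CPM. In bulk libraries fewer cells of a type and less RNA per cell cannot be told apart.

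**Figure D1:**
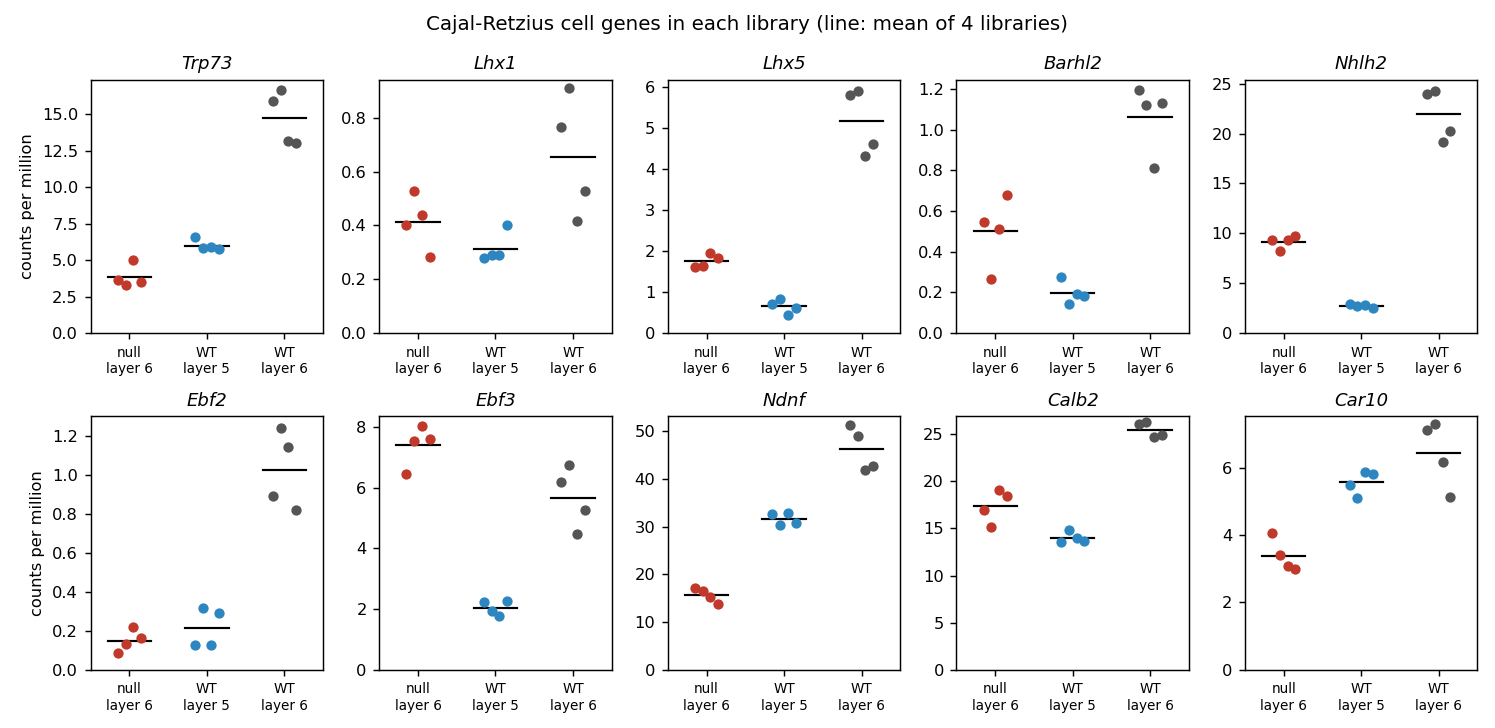
CPM of each member in each of the 12 libraries, 1 panel per gene with its own axis; points are libraries and lines the mean of 4. WT layer 6 has the highest mean for every gene but Ebf3, where null layer 6 averages 7.41 CPM.

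Trp73 codes for p73, a p53-family transcription factor on which the survival of Cajal-Retzius cells depends in mice. It had 3.66, 3.26, 4.99 and 3.47 CPM in null layer 6 libraries, against 15.9, 16.7, 13.2 and 13.04 CPM in WT layer 6 libraries, from 148 to 205 and 551 to 748 counts. The highest null library was well under the lowest WT one. The log2 fold change was -1.91 ± 0.13 (SE), or 3.77-fold lower, and leaving out any 1 library gave -2.06 to -1.84. Its relatives in the p53 family were not called: null libraries averaged 55.3 CPM of Trp53 and WT layer 6 libraries 56.6 CPM, and Trp63 averaged 0.244 CPM in null and 0.256 CPM in WT layer 6.

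Lhx1 and Lhx5 code for LIM-homeodomain factors found in Cajal-Retzius cells and in neurons elsewhere in the brain. Lhx5 had 1.62, 1.63, 1.95 and 1.83 CPM in null layer 6, against 5.81, 5.91, 4.33 and 4.63 CPM in WT layer 6, a log2 fold change of -1.53 ± 0.14 (SE) with no overlap. Lhx1 was near the limit of detection, with 12 to 24 counts in null and 19 to 36 in WT layer 6 libraries. It had 0.3997, 0.529, 0.438 and 0.281 CPM in null, against 0.767, 0.910, 0.418 and 0.528 CPM in WT layer 6. The groups overlapped, and the log2 fold change of -0.62 ± 0.32 (SE) was not called. Lhx1os, which runs antisense to Lhx1, had 0.346 CPM in null and 0.428 CPM in WT layer 6. The sources used here do not say whether the counting used strand, so reads of these neighbours may be mixed. Lhx2, a LIM-homeodomain gene of cortical progenitors, stood at 154 CPM in null, against 157 CPM in WT layer 6, and was not called. Lhx6, at 91.0 CPM in null, against 98.8 CPM in WT layer 6, and Lhx9, at 9.71 and 7.13 CPM, were not called either, and Lhx3, Lhx4 and Lhx8 had at most 4 counts in any layer 6 library.

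Barhl2, a homeobox gene expressed in Cajal-Retzius cells and in the diencephalon, had 0.547, 0.265, 0.511 and 0.680 CPM in null, against 1.19, 1.12, 0.814 and 1.13 CPM in WT layer 6. The groups did not overlap, at a log2 fold change of -1.06 ± 0.29 (SE), but these levels rest on 12 to 29 counts in null and 37 to 62 in WT layer 6 libraries. The call was lost when any of null replicates 2 and 3 or WT replicates 1, 2 and 4 was left out, with values of -1.25 to -0.85 over the 8 libraries left out in turn. It was also lost without WT replicates 1 and 2 together, the libraries of low Xist, at -0.95.

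Nhlh2 codes for a basic helix-loop-helix factor of young neurons. It had 9.36, 8.18, 9.30 and 9.78 CPM in null, against 23.98, 24.3, 19.1 and 20.3 CPM in WT layer 6. The null libraries sat close together and all below the WT ones, at a log2 fold change of -1.23 ± 0.088 (SE). Its close paralogue Nhlh1 was called in the other direction, at 3.72 ± 0.974 CPM in null, against 2.48 ± 0.299 CPM in WT layer 6 (SD, n = 4), a log2 fold change of 0.61 ± 0.18 (SE), though its groups overlapped.

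Ebf2 and Ebf3 code for early B-cell factors, a family of DNA-binding proteins that marks Cajal-Retzius cells, and they stood apart from each other. Ebf2 had 0.0841, 0.132, 0.219 and 0.164 CPM in null, against 0.895, 1.24, 1.14 and 0.820 CPM in WT layer 6, from 4 to 9 and 41 to 52 counts. At -2.74 ± 0.33 (SE), or 6.66-fold lower, this was the lowest log2 fold change of the 10 genes, on few counts. Ebf2 passed the filter through its WT layer 6 libraries alone, so this call and rank lean on the group where it is high. Ebf3 had 6.46, 7.54, 8.03 and 7.60 CPM in null, against 6.20, 6.73, 4.49 and 5.25 CPM in WT layer 6. Null replicate 1 lay below WT replicate 2, so the groups overlapped, and the log2 fold change was 0.42 ± 0.12 (SE), or 1.33-fold higher. The call for Ebf3 was lost when any of null replicates 2, 3 and 4 or WT replicates 1, 3 and 4 was left out, with values of 0.32 to 0.50 over the 8 libraries left out in turn. Without the WT libraries of low Xist it was called at 0.62. The paralogues Ebf1, at 3.06 CPM in null, against 3.16 CPM in WT layer 6, and Ebf4, at 5.53 and 6.32 CPM, were not called.

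Ndnf codes for a secreted neuronal factor found in Cajal-Retzius cells and in layer 1 interneurons. It had 17.2, 16.5, 15.3 and 13.7 CPM in null, against 51.2, 49.0, 41.9 and 42.8 CPM in WT layer 6. No null library reached the WT range, and the log2 fold change was -1.53 ± 0.078 (SE), or 2.89-fold lower. Calb2, the gene of the calcium-binding protein calretinin, had 17.0, 15.1, 19.1 and 18.5 CPM in null, against 26.0, 26.3, 24.7 and 24.9 CPM in WT layer 6. Its groups did not overlap either, at a smaller log2 fold change of -0.53 ± 0.070 (SE). Calb1, the gene of the related protein calbindin, was called lower too, at -0.41 ± 0.098, and Pvalb, that of parvalbumin, had at most 1 count in any layer 6 library. Car10, which codes for a carbonic anhydrase-related protein that lacks enzyme activity and binds neurexins, had 4.06, 3.42, 3.07 and 3.002 CPM in null, against 7.11, 7.31, 6.16 and 5.12 CPM in WT layer 6. The log2 fold change was -0.89 ± 0.14 (SE) with no overlap, and the call was lost with library pairs summed, at -0.89 ± 0.18 (SE). The related genes Car2, Car4, Car8 and Car11 were not called, with Car8 at 6.73 CPM in null, against 5.37 CPM in WT layer 6.

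**Figure D2:**
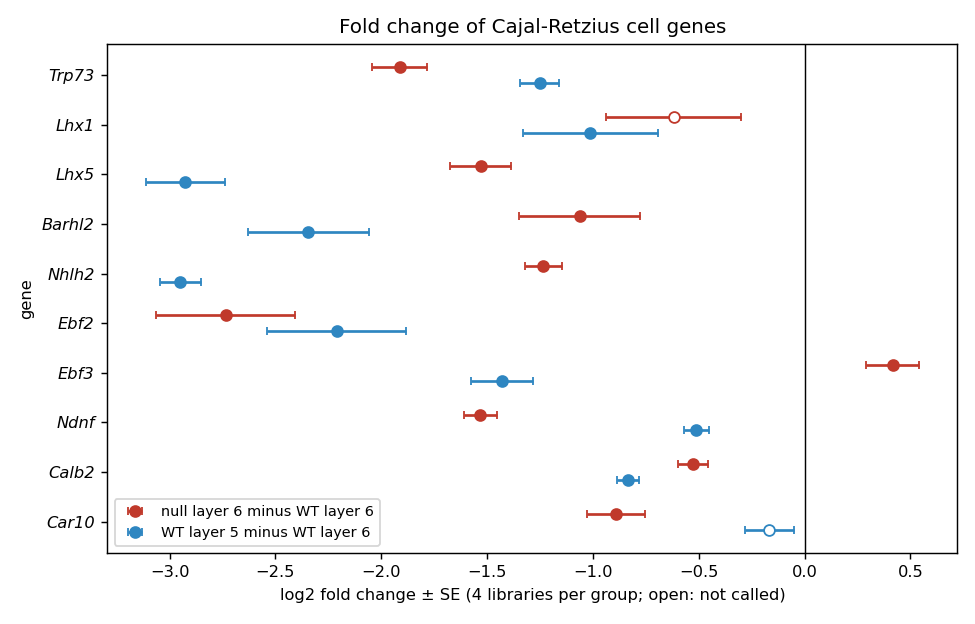
Log2 fold change with its SE for each gene, null layer 6 minus WT layer 6 and WT layer 5 minus WT layer 6, 4 libraries per group; open points were not called. Nhlh2, Lhx5, Barhl2, Ebf3, Lhx1 and Calb2 are further down in layer 5 (-2.95, -2.93, -2.34, -1.43, -1.01 and -0.83). Ebf2, Trp73, Ndnf and Car10 are further down in null layer 6 (-2.74, -1.91, -1.53 and -0.89). Null layer 6 and WT layer 5 libraries overlapped for Lhx1, Ebf2 and Barhl2.

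The markers were also lower in WT layer 5 than in WT layer 6 libraries, but so were many genes. Of the 10, 9 were called lower, all 9 without overlap, and Car10 was not called. Over the 14927 genes tested, edgeR called 43.4% lower and 42.2% higher, and 42.5% were lower without overlap, so a single marker's call says little here. The median log2 fold change was -1.34 over the members and -0.010 over all genes. The fall was steepest for Nhlh2, with 2.90, 2.75, 2.86 and 2.51 CPM in WT layer 5, against 23.98, 24.3, 19.1 and 20.3 CPM in WT layer 6. Its log2 fold change was -2.95 ± 0.097 (SE), or 7.73-fold lower. Lhx5 had 0.705, 0.839, 0.449 and 0.619 CPM in WT layer 5, at -2.93 ± 0.19 (SE) against WT layer 6. These 2 genes kept about the same share of their WT layer 6 level, 12.6% each.

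The other markers had smaller log2 fold changes. Barhl2 had 0.277, 0.145, 0.192 and 0.182 CPM in WT layer 5, a log2 fold change against WT layer 6 of -2.34 ± 0.29 (SE) on 5 to 11 counts. Ebf2, on 4 to 11 counts in WT layer 5, was at -2.21 ± 0.33 (SE). Barhl2 and Ebf2 passed the filter here through WT layer 6 libraries alone, so their calls lean on the group where they are high. Ebf3, which was higher in null layer 6, had 2.22, 1.94, 1.76 and 2.26 CPM in WT layer 5 and was lower there than in WT layer 6, at -1.43 ± 0.15 (SE). Trp73 had 6.57, 5.81, 5.87 and 5.75 CPM in WT layer 5, at -1.25 ± 0.093 (SE). Lhx1 was at -1.01 ± 0.32 (SE) on 9 to 11 counts in WT layer 5. Its call was lost with layer 5 libraries of batch C alone, at -0.88, and without the WT layer 6 libraries of low Xist, at -0.61. Calb2, with 13.5 to 14.8 CPM in WT layer 5, and Ndnf, with 30.3 to 32.8 CPM, were at -0.83 ± 0.051 and -0.51 ± 0.058 (SE). Car10 had 5.49, 5.09, 5.87 and 5.83 CPM in WT layer 5, where replicate 2 lay just below the lowest WT layer 6 library and the other 3 inside that group's range, at -0.17 ± 0.12 (SE), and it was called, at -0.27, once WT layer 6 replicate 4 was left out.

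The order of the 3 groups differed between markers. Null layer 6 had the lowest mean for Trp73, Ndnf, Ebf2 and Car10, and WT layer 5 the lowest for Nhlh2, Lhx1, Lhx5, Ebf3, Calb2 and Barhl2. Both comparisons above share the WT layer 6 libraries, so null layer 6 and WT layer 5 were set side by side by range only, as they differ in genotype, layer and batch. For this pair of groups 9 markers passed the filter on low counts. Trp73, Ndnf and Car10, 3 of the 9, were lower in every null layer 6 library than in every WT layer 5 library. This was so for 39.1% of 15013 genes. Nhlh2, Lhx5, Ebf3 and Calb2, 4 of the 9, were higher without overlap, as were 41% of genes. The markers were thus near the shares of all genes, and this split says little about them as a set. Lhx1, Ebf2 and Barhl2 overlapped between null layer 6 and WT layer 5, and Ebf2 did not pass the filter on low counts for this pair of groups. As shares of the WT layer 6 mean, Trp73 stood at 26.1% in null layer 6 and 40.8% in WT layer 5, and Ndnf at 34.0% and 68.4%. Nhlh2 stood at 41.8% in null layer 6 and 12.6% in WT layer 5, Lhx5 at 34.0% and 12.6%, and Ebf3 at 131% and 36.1%.

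Within WT layer 6 the markers differed between the library pairs. All 10 had a higher mean in replicates 1 and 2 than in replicates 3 and 4, as did 56.3% of the 14588 genes tested, and the markers' summed level was 139 CPM in each of the first pair and 116 and 118 CPM in the second. The first pair are the libraries with almost no Xist counts. The source of this difference was not tested, and results without the first pair are given below. In null layer 6, 3 of the 10 were higher in replicates 1 and 2, as were 53.1% of all genes, and 7 in replicates 3 and 4, with summed levels of 60.4, 56.6, 62.9 and 59.0 CPM. Without WT replicates 1 and 2, 8 markers were called between null and WT layer 6, 7 lower and Ebf3 higher, where 4.56% of 14804 genes were called lower and 5.61% higher. The log2 fold changes were then -1.76 for Trp73, -1.42 for Ndnf, -1.09 for Nhlh2, -1.34 for Lhx5, -2.69 for Ebf2, -0.50 for Calb2 and -0.72 for Car10, and Lhx1, still not called, was at -0.19. Log2 levels of the 10 markers around their group means were correlated as a description over the 8 layer 6 libraries, which share depth and pairs. The median was 0.40 over 45 pairs of genes, with a range of -0.23 to 0.93. The pair difference within WT layer 6 enters these correlations, and no such value was computed for other genes.

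Of 15 other Cajal-Retzius genes tested, 4 were called lower in null than in WT layer 6, 1 was called higher and 10 were not called, with a median log2 fold change of -0.085. The lower ones were Reln, the gene of reelin, at 253 ± 6.54 CPM in null, against 553 ± 43.4 CPM in WT layer 6 (SD, n = 4), the nuclear receptor gene Nr2f2 at -0.72 ± 0.12 (SE), Mab21l1 at -0.98 ± 0.19 and the chemokine receptor gene Cxcr4 at -0.15. The homeobox gene Emx2 was called higher, at 0.30 ± 0.063. Of 10 tested genes of the progenitor zones from which Cajal-Retzius cells come, 1 was called, Bmp4, which was lower at -0.44 ± 0.13 (SE). Gdf7 and Dbx1, which define such zones, had at most 3 counts in any layer 6 library. Other genes of this list had more, with 165 to 267 counts of Bmp4 and 189 to 414 of Msx1, which was not called. Among 11 tested p53-family targets and regulators, 1 was called, the cell-death gene Bbc3, which was lower at -0.35 ± 0.053 (SE). Among 10 LIM cofactor and LIM-only genes, Lmo1 and Ldb2 were called higher and Ldb1 and Ssbp3 lower, with Ldb1, whose product bridges LIM-homeodomain proteins, at -0.14 ± 0.031 (SE).

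**Figure D3:**
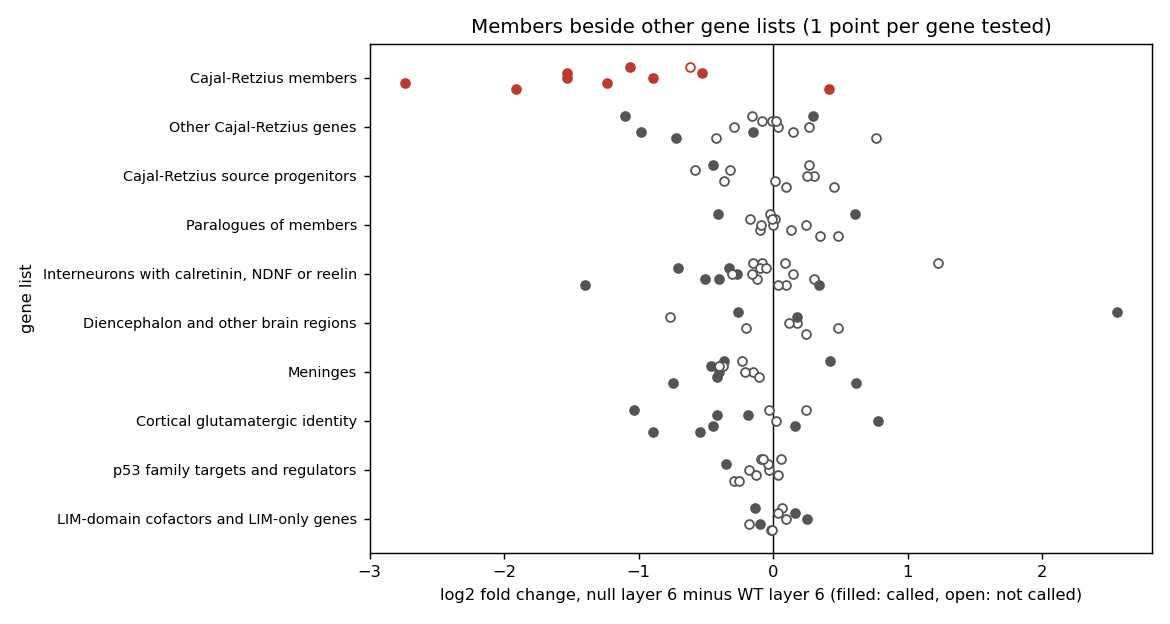
Log2 fold change of each tested gene, null layer 6 minus WT layer 6, for the 10 markers and 9 other gene lists; filled points were called and open ones were not. Of the markers 9 lie left of 0 and 1, Ebf3, lies right of it; every other list has genes on both sides.

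Calretinin, NDNF and reelin are also made by interneurons, and the meninges cover the layer in which Cajal-Retzius cells lie. Of 20 interneuron genes, 6 were called lower in null than in WT layer 6, 1 higher and 13 were not called, with summed levels of 735 to 748 CPM in null and 788 to 803 CPM in WT layer 6. Among the 6 called lower, the neuropeptide gene Cck was at -0.71 ± 0.090 (SE). The transcription factor genes Npas1 and Dlx1, also of these 6, were at -0.40 ± 0.067 and -0.27 ± 0.046. The 1 called higher was the neuropeptide gene Npy, at 0.34 ± 0.063. Of 13 meningeal genes, 5 were called lower, 2 higher and 6 not at all, with summed levels of 679 to 902 CPM in null and 933 to 1015 CPM in WT layer 6. Cxcl12, the meningeal chemokine that holds Cajal-Retzius cells at the surface by way of CXCR4, had 33.3 ± 3.16 CPM in null and 56.8 ± 3.87 CPM in WT layer 6 (SD, n = 4). Foxc1 was called lower too, at -0.46 ± 0.085 (SE), while Dcn and Lum were called higher, at 0.43 ± 0.070 and 0.62 ± 0.11. The part of interneurons and meninges in the markers' values was not tested. Of 20 genes of the diencephalon and other regions, 9 were tested, 2 were called higher, 1 lower and 6 not at all. Hoxb3 had 0 counts in every layer 6 library, and Barhl1, Gbx2 and Pou4f1 had at most 6. Other genes of this list were well detected. Prkcd, called higher, averaged 31.6 CPM in null and 28.4 CPM in WT layer 6. Ppp1r1b, called lower, averaged 17.0 and 20.7 CPM, and Lhx9, not called, 9.71 and 7.13 CPM. Of 11 genes of cortical glutamatergic identity, 6 were called lower and 2 higher. Their sum was 2195 to 2393 CPM over the null libraries and 2482 to 2710 CPM over those of WT layer 6. Tbr1, the mutated gene, is on this list and is 1 of the 6, so its own fall is part of both figures. Tle4 and Neurod6 were also among the lower ones, and Fezf2 was among the higher ones.

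Between the layers these lists differed as well. The summed level of the other Cajal-Retzius genes was 577 to 591 CPM in WT layer 5 and 909 to 1007 CPM in WT layer 6, with 12 of 15 called lower and 2 higher. The 20 interneuron genes were mixed as well, with 7 called higher in WT layer 5, 10 lower and a median log2 fold change of -0.19. Their sum was 497 to 515 CPM in WT layer 5 and 788 to 803 CPM in WT layer 6, and Id2 alone averaged 94.7 CPM in WT layer 5 and 258 CPM in WT layer 6. The 13 meningeal genes were mixed, with 4 called higher in WT layer 5, 6 lower and a median log2 fold change of -0.094, and their sum was 1166 to 1192 CPM in WT layer 5 and 933 to 1015 CPM in WT layer 6. Col1a1, Col1a2, Igf2 and Ptgds were the ones called higher. The cortical glutamatergic genes summed to 832 to 870 CPM in WT layer 5 and 2482 to 2710 CPM in WT layer 6. The part of these differences in the markers' values was not tested.

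The genes whose levels followed the markers most closely over the 8 layer 6 libraries were found by Pearson correlation of log2(CPM + 1) among 11282 genes. For Trp73 they were Cntn2, Reln, Nmnat2, Ptchd2 and Gpm6b, all at r of 0.99, and 194 genes exceeded 0.95. Cntn2, which codes for a contactin of axons, had 698 ± 22.4 CPM in null layer 6 libraries, 74.3 CPM in those of WT layer 5 and 1014 ± 23.6 CPM in those of WT layer 6 (SD, n = 4). For the mean of the 10 markers they were Prkcb, Cul7, Ppm1h, Fkbp9 and Rimbp2, led by Prkcb, a protein kinase C gene, at 120 ± 3.81 CPM in null, 1009 in WT layer 5 and 193 ± 21.0 in WT layer 6. Any gene that differs clearly between the genotypes scores high on this measure, and the layer 5 levels of Cntn2 and Prkcb go in opposite directions.

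**Figure D4:**
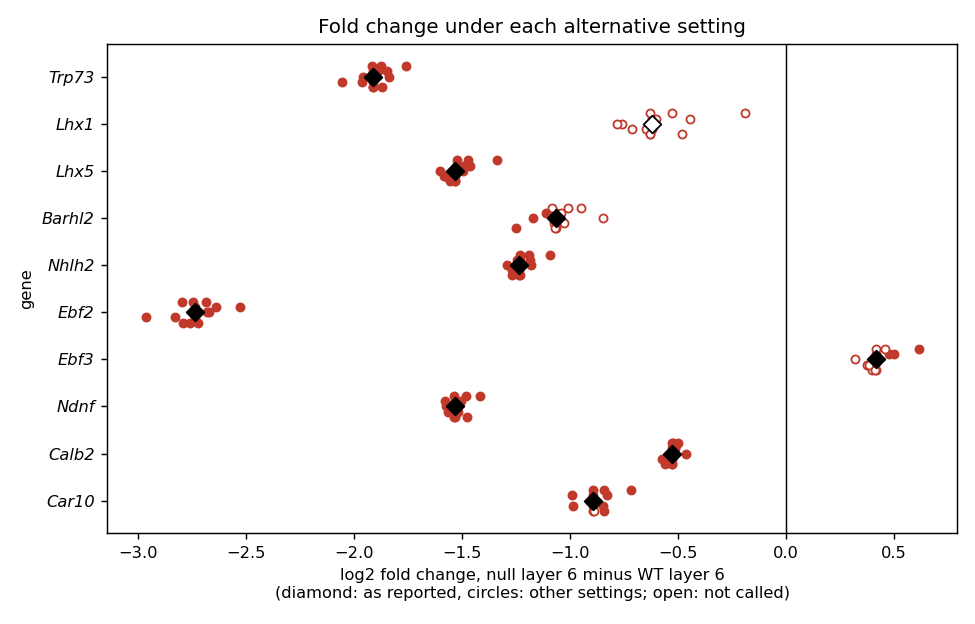
Log2 fold change of each gene, null layer 6 minus WT layer 6, as reported (diamonds) and under the other settings for single genes (circles); open symbols were not called. No gene crosses 0. The calls for Ebf3 and Barhl2 are lost under several settings, that for Car10 under 1, and Lhx1 was called under none of those shown. The threshold of 1.5-fold, which 5 members passed, is not among the settings shown.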

How the data were processed

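RNA libraries of sorted postnatal day 5 neurons were analysed, 4 per group, as grouped by the labels. The authors deposited whole-number counts per gene, made from stranded, ribosome-depleted total RNA per the labels' protocols. Per the submitters' processing notes, the tools include STAR 2.5.2b and HTSeq, and mm9 is the build named. The sources used here give no strand setting and no annotation for the counting. A table of whole-number scores, normalized by the authors by steps that the sources used here do not give, served only for the sign of fold changes. All 24015 genes entered the library totals, and 0 columns were unmatched.

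The quasi-likelihood F-test of edgeR 4.0.16 (R 4.3.3) was run on counts of the pair of groups compared, with TMM and filterByExpr, and a gene was called at an adjusted p (Benjamini-Hochberg, over all genes tested) under 0.05. DESeq2 1.42.0, other filters, a fold threshold, a replicate block, summed library pairs and left-out libraries were tried as alternatives. Scripts were tested on simulated data. CPM are scaled by library totals and fold changes by TMM. Low counts limit Lhx1, Ebf2 and Barhl2.

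The members and all gene lists were chosen with earlier results of these data known. The naming rule took all members, their paralogues, up to 4 genes per other list with the smallest p between null and WT layer 6, and the 5 genes most like Trp73 and most like the mean of the members, among genes of at least 5 CPM. Which genes of the other lists are printed was settled after their values were seen. Cxcr4, Hoxb3, Gdf7, Dbx1, Gbx2, Pou4f1, Xist, Lhx1os, Ttr, Eomes, Id2, Col1a1, Col1a2, Igf2 and Ptgds fall outside it and were named after their values were seen. ChIP-seq peaks are in mm9, the tables used for promoters in GRCm38.p6, so the peaks were not analysed here.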

Additional observations from a re-analysis of the deposited data

Results flagged for a closer look

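Of 30 sets of 4 library values (10 genes in 3 groups), 2 had 1 library far from the other 3, by the gap to its nearest neighbour as a share of the whole range (Dixon's 95% limit). Chance gives about 1 such set in 20. Trp73 in WT layer 5 replicate 1 was at 6.57 CPM, with the other 3 libraries at 5.75 to 5.87. Lhx1 in WT layer 5 replicate 4 was at 0.401 CPM, or 11 counts, with the other 3 at 0.277 to 0.289 CPM, or 9 to 11 counts.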

How the results depend on the processing

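Of 340 values of single members under other settings, 320 kept their direction and their side of the threshold. A further 19 lost a call, 1 gained one and 0 changed direction. Among the 340, the signs in the authors' score table carry no test, and the threshold of 1.5-fold is not included. Between null and WT layer 6, 2068 genes were called, against 479 with library pairs summed and 147 where the change had to exceed 1.5-fold, and 1632 to 1838 with 1 library left out. Of the members, 9 were called there, 5 above 1.5-fold, 6 with pairs summed (Ebf3 at 0.41, Barhl2 at -1.07 and Car10 at -0.89 were not called) and 7 to 9 with 1 library left out. Between WT layer 5 and WT layer 6, 12768 genes were called, against 6371 above 1.5-fold, and 12520 to 12850 with 1 library left out. With WT layer 6 replicates 1 and 2 left out, an alternative chosen after the data were seen, 1506 genes and 8 members were called between null and WT layer 6. Same-numbered libraries did not vary together (correlations of -0.13 to -0.065 between null and WT layer 6 and -0.028 to -0.0058 between layers). These values give no sign that the numbers pair the samples, but cannot exclude it, and the labels name no pairing between groups. The replicate block gave 1526 genes and 7 members, without Ebf3 at 0.42 and Barhl2 at -1.08, and 12675 genes and 9 members between layers. Depth limits Lhx1, Ebf2 and Barhl2.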

Other observations

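The transthyretin gene Ttr, made by the choroid plexus beside the cortical hem, ran from 304 to 42723 counts over the 8 layer 6 libraries. Drd2, a dopamine receptor gene in the list of other brain regions, had 2.09 ± 0.509 CPM in null and 0.373 ± 0.191 CPM in WT layer 6 (SD, n = 4), a log2 fold change of 2.55 ± 0.32 (SE) that edgeR called. In WT layer 5, Eomes, a T-box gene of intermediate progenitors and Cajal-Retzius cells, had 4.77 ± 0.342 CPM, against 50.6 ± 0.484 CPM in WT layer 6.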
